A study of Mus musculus with 20 samples.

Results

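The 6 genes of brain lipid transport Apod, Apoe, Clu, Abca1, Abcg1 and Lcat were followed across 4 groups of mouse neocortex. They are 6 of the 18193 genes that the array's annotation names from a probe set of 1 gene, and they lay on 13 of the 45037 probe sets of the array that are not controls, namely every probe set that the platform annotation assigns to one of the genes alone. A probe set is a group of short probes against one transcript region, and its signal is a linear intensity. Clu had 4 probe sets, Abca1 had 3, Apod and Abcg1 had 2 each, and Apoe and Lcat had 1 each. Of the 13 probe sets, 12 were bright enough to be tested, and the dimmest probe set of Abca1 is given as values only.

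All mice were male B6C3F1 hybrids, a cross of B6 and C3H parents, housed singly. Mixture mice were 30 months old and had been fed α-tocopherol and γ-tocopherol, each at 500 mg/kg, from 15 months of age. α-Tocopherol mice were of the same age and had received 1000 mg/kg α-tocopherol from 15 months of age. Old control mice of 30 months and young control mice of 5 months ate the control diet. γ-Tocopherol differs from α-tocopherol by the lack of 1 methyl group on its ring. Each group held 5 mice, and each mouse had its own array of poly(A) RNA, so p-values measure the spread between mice. The series addresses how ageing changes gene expression in the neocortex and what vitamin E in the diet from middle age does to it.

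Brain cholesterol is made in place, because lipoproteins of the blood do not cross the blood-brain barrier. Astrocytes release lipoprotein particles that carry apolipoprotein E and clusterin, the transporters Abca1 and Abcg1 load these particles with cholesterol and phospholipid, and lecithin-cholesterol acyltransferase (Lcat) esterifies the cholesterol on them. Apolipoprotein D belongs to the lipocalins, binds small hydrophobic molecules and is made in the brain mainly by glia. Abca1, Abcg1 and Apoe are known targets of the liver X receptors, which sense oxidised cholesterol.

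Every array had been scaled to the same trimmed mean signal of 1000 before deposit, and the lowest correlation between any pair of arrays was 0.938. The 3′ to 5′ ratio of the β-actin control probe sets, a measure of RNA integrity and labelling length that is lowest for intact RNA, averaged 1.43 ± 0.145 (SD) in the 5 mixture mice and 2.04 ± 0.339 in the 5 old control mice, with an exact two-sided permutation p of 0.00794, or 0.0238 after adjustment over 12 such tests. The ratio did not overlap between these groups, with 1.22 to 1.60 in mixture mice and 1.73 to 2.52 in old control mice. A fit with this ratio as a covariate therefore cannot tell the ratio and the diet apart in that comparison. The ratio was also higher in old control mice than in young control mice, which had 1.52 ± 0.135 (exact permutation p = 0.0238, adjusted 0.0571). The neuronal marker Slc17a7 had a signal of at least 7185 on all arrays, which by itself does not identify the tissue as neocortex. The array of old control mouse 3 and that of mixture mouse 5 stood apart from the others on principal components of all tested probe sets, and the results that depend on them are given with and without them. Signals of different probe sets are not compared here, since a probe set's brightness depends on its probes.

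The gene with the largest difference was Apod. Its gene lies on mouse chromosome 16, bases 31296192 to 31314808 of the minus strand (RefSeq, GRCm38.p6). Probe set 1416371_at gave signals of 15262, 13334.5, 17151, 11662.5 and 10455.5 in mixture mice, 14338, 12925.5, 14832, 11096 and 14119 in α-tocopherol mice, 11934, 11921, 16073, 13081 and 12317 in old control mice and 5954, 5723.5, 6588, 6882.5 and 5615.5 in young control mice. All 15 old mice lay above all young control mice, whatever their diet. Of tested probe sets, 7.09% were higher without overlap in old control mice, 6.74% in α-tocopherol mice and 5.72% in mixture mice, each against young control. Apod was 2.11-fold higher in old control than in young control neocortex (95% confidence interval 1.79 to 2.49), a log2 difference of 1.08 ± 0.11 (SE, limma adjusted p = 6.29e-06), and ranked 11 by p among the 27022 probe sets tested. The log2 difference from young control was 1.12 in mixture mice (adjusted p = 2.88e-06) and 1.12 in α-tocopherol mice (adjusted p = 4.81e-06). Against old control, the mixture gave 0.04 with a 95% interval of -0.19 to 0.28 (adjusted p = 0.878), and α-tocopherol gave 0.05 with an interval of -0.19 to 0.28 (adjusted p = 0.969). These comparisons share the old control mice, and neither diet moved Apod by an amount that the spread between mice could resolve.

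The second Apod probe set, 1444564_at, was much dimmer, with signals of 618 to 1349 in mixture mice, 529 to 814 in α-tocopherol mice, 447 to 817 in old control mice and 401 to 465 in young control mice. Old control and young control mice overlapped on it. Its log2 difference between them was 0.51 ± 0.18 (SE, limma adjusted p = 0.047), a call that was kept in 9 of 23 other settings, where the adjusted p ran from 0.0119 to 0.264. Mixture mice did not overlap young control mice on it, at 0.88 (adjusted p = 0.00219), where 5.72% of tested probe sets were higher without overlap. Their difference from old control, 0.37, was not called (adjusted p = 0.235). The highest mixture value was that of mouse 3, which was also the highest on the bright probe set.

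**Figure D1:**
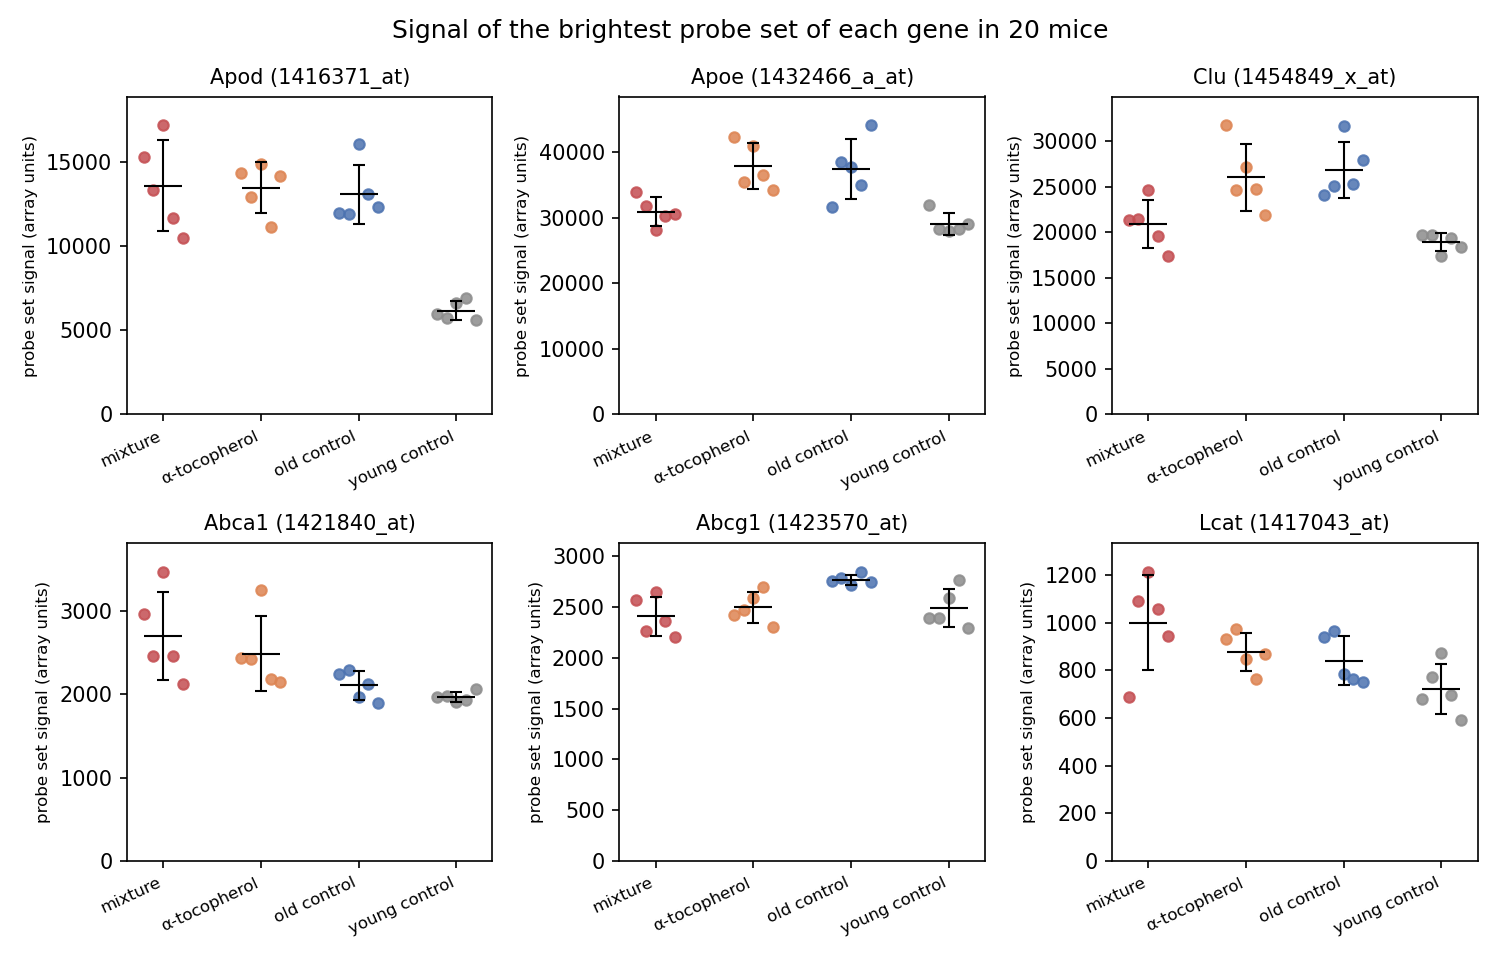
Signal of the brightest probe set of each of the 6 genes (linear array units, axes from 0) in the 5 mice of each group; points are mice, and bars are the mean and SD. Apod separated all old mice from all young control mice, Clu separated old control from young control mice, and Abcg1 in old control mice (2715 to 2849) lay above every mouse of both supplemented groups.

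Apoe, whose protein is the main lipoprotein constituent of the brain, lies on chromosome 7 at 19696244 to 19701310 on the minus strand. Its only probe set, 1432466_a_at, whose suffix marks probes shared by several transcripts of 1 gene, gave 33950.3, 31874, 28145, 30297 and 30548 in mixture mice and 42301, 35454, 40929.6, 36577.5 and 34221 in α-tocopherol mice. It gave 31715, 38586, 37683, 34996 and 44103 in old control mice and 31996, 28235, 27933, 28316 and 29132 in young control mice. Young control mouse 1 lay above the lowest old control mouse, so these groups overlapped. Apoe was 1.28-fold higher in old control than in young control neocortex, a log2 difference of 0.35 ± 0.08 (SE, limma adjusted p = 0.00368). α-Tocopherol mice did not overlap young control mice and differed from them by 0.38 (adjusted p = 0.00267), where 6.74% of tested probe sets were higher without overlap. Mixture mice lay closer to young control mice, at 0.09 with a 95% interval of -0.08 to 0.25 (adjusted p = 0.472).

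The direct comparisons of the diets for Apoe did not pass the threshold as reported. Mixture against old control was -0.27 ± 0.08 (SE, adjusted p = 0.0584). It was called in 6 of 24 other settings, among them Ttr as a covariate (adjusted p = 0.0255), array medians set equal (0.0402) and leaving out old control mouse 1 (0.0254), over a range of 0.0254 to 0.885. α-Tocopherol against old control was 0.02 with an interval of -0.14 to 0.18 (adjusted p = 0.98). All 5 mixture mice lay below all 5 α-tocopherol mice, a separation that 0.688% of tested probe sets showed in that direction, and the log2 difference was -0.29 ± 0.08 (SE, adjusted p = 0.224). The doses of both diets add up to the same amount of tocopherol, and they differ in the form.

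Clu encodes clusterin, also called apolipoprotein J, a secreted chaperone and lipid carrier made by astrocytes. It lies on chromosome 14 at 65968483 to 65981548. Its brightest probe set, 1454849_x_at, gave 21402, 21448, 24603.5, 19650 and 17393 in mixture mice and 31747, 24670.4, 27128, 24761 and 21939 in α-tocopherol mice. It gave 24093, 25114.5, 31664, 25363 and 27939 in old control mice and 19676, 19693, 17420.4, 19426 and 18354 in young control mice. Every old control mouse lay above every young control mouse, and this held on each of the 4 Clu probe sets, where 7.09% of all tested probe sets were higher without overlap.

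In old control against young control neocortex the Clu log2 differences were 0.50 ± 0.09 on 1454849_x_at, 0.59 ± 0.09 on 1437458_x_at, 0.50 ± 0.09 on 1437689_x_at and 0.26 ± 0.08 on 1418626_a_at (SE). Their limma adjusted p-values were 0.00132, 0.00036, 0.000644 and 0.0223 in the same order. With the β-actin ratio added to the fit, 1454849_x_at had 0.31 (adjusted p = 0.0577, and 0.000323 to 0.0577 over 24 other settings), and 1418626_a_at lost its call in 5 of 23 other settings, while the remaining pair kept theirs in all 23. The _x_at suffix of the first 3 marks probes that may also bind other transcripts, and the fourth, whose suffix marks transcripts of 1 gene only, had the smallest difference. Probe sets of 1 gene share its RNA and are not independent measurements.

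Clu was lower in mixture than in old control mice on the _x_at probe sets. The log2 differences were -0.36 ± 0.09 on 1454849_x_at, -0.37 ± 0.09 on 1437458_x_at and -0.32 ± 0.09 on 1437689_x_at (SE, limma adjusted p = 0.0373, 0.0324 and 0.0445). On 1418626_a_at the difference was -0.11 with an interval of -0.27 to 0.05 (adjusted p = 0.463). Only 1437458_x_at separated the groups without overlap, with 14752 to 20797 in mixture mice and 21636 to 26889 in old control mice, where 3.03% of tested probe sets were lower without overlap. α-Tocopherol mice differed from old control mice by -0.11 to -0.01 on the 4 probe sets, with adjusted p-values from 0.912 to 0.991. Mixture against α-tocopherol was -0.32 to -0.06, with the lowest adjusted p at 0.244. All 3 Clu calls for the mixture were lost in 13 other settings, among them when old control mouse 3, 4 or 5 or mixture mouse 2, 4 or 5 was left out in turn, when old control mouse 3 and mixture mouse 5 were left out together, and when the dim probe sets were kept in the test.

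The brightness of the probe sets moved with these results. Apoe and the 3 _x_at probe sets of Clu were among the brightest 2% of the probe sets tested, a class of 540 with mean signals of 14810 or more. The median log2 difference of that whole class was 0.23 in old control against young control mice and -0.29 in mixture against old control mice, where the dimmest 25% of probe sets had -0.165 and 0.093. In old control against young control mice, Clu at 0.50 to 0.59 lay above the upper quartile of the class, which was 0.35, and Apoe at 0.35 lay close to it. In mixture against old control mice, Apoe at -0.27 and the Clu probe sets 1454849_x_at at -0.36 and 1437689_x_at at -0.32 lay within the interquartile range of the class, which ran from -0.37 to -0.19, and 1437458_x_at at -0.37 lay at its edge. Quantile normalization, which gives all arrays the same distribution, brought the median of the brightest class to -0.002 and -0.012 in these comparisons. It left Apod at 0.99 in old control against young control mice, the brightest Clu probe set at 0.24, still called, and Apoe at 0.06 (adjusted p = 0.559, with a range of 0.00073 to 0.559 over 24 other settings). In old control against young control mice Apoe also lost its call under cyclic loess normalization, at 0.15 (adjusted p = 0.0857). In the same comparison Clu 1418626_a_at, whose suffix marks transcripts of 1 gene only, lost its call under both normalizations. It had 0.13 under quantile (limma adjusted p = 0.173) and 0.13 under cyclic loess normalization (limma adjusted p = 0.197). After quantile normalization, mixture against old control was -0.06 for the brightest Clu probe set and 0.13 for Apoe.

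**Figure D2:**
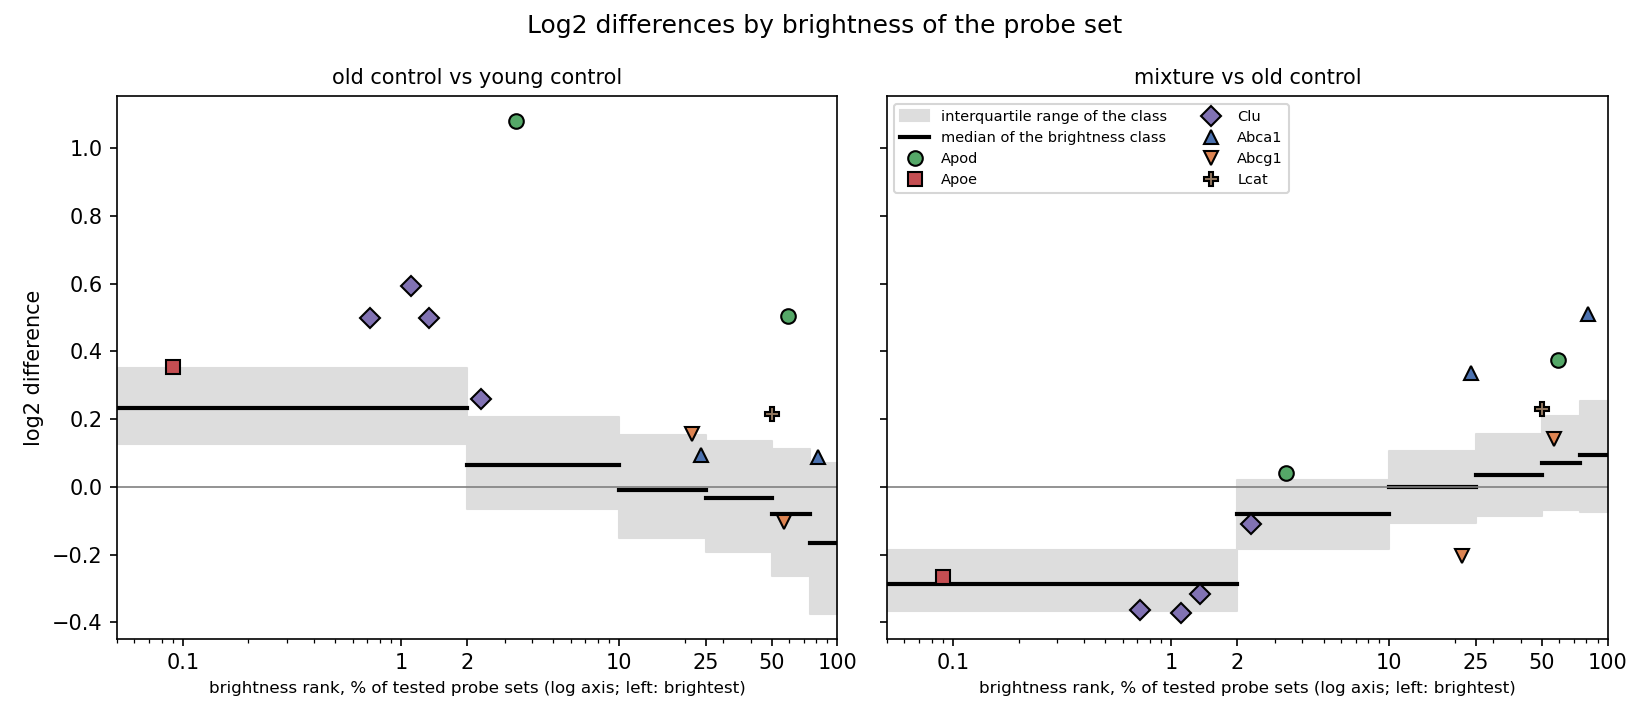
Log2 difference of each tested probe set of the 6 genes against its brightness rank among all tested probe sets (percent, log axis, brightest at the left), for old control vs young control and mixture vs old control. Black lines and grey bands are the median and interquartile range of all probe sets of a brightness class; Apod and Clu stood above the band in the first comparison, and Apoe and Clu followed the band in the second.

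**Figure D3:**
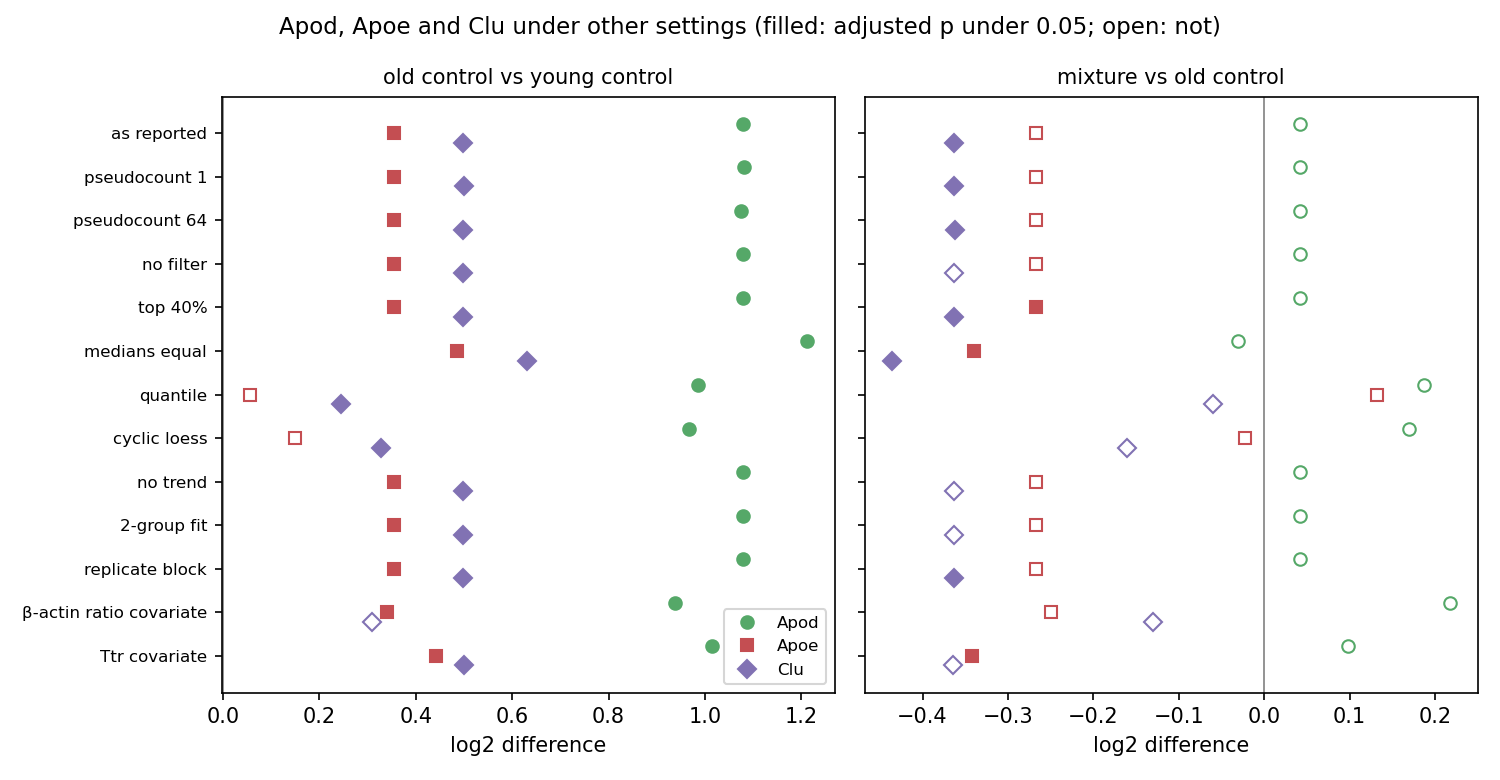
Log2 difference of the brightest probe set of Apod, Apoe and Clu in old control vs young control and in mixture vs old control under the reported setting and 12 others. Apod stayed between 0.94 and 1.21 in the first comparison, and Apoe in the second lay between -0.34 and 0.13.

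Neither transporter was called between old control and young control mice. Abca1, which moves cholesterol and phospholipid onto lipid-poor apolipoproteins, lies on chromosome 4 at 53030789 to 53159988 on the minus strand. Probe set 1421840_at gave 2969, 2461, 3478, 2466 and 2123 in mixture mice and 2443, 2422, 3260.2, 2181 and 2152 in α-tocopherol mice. It gave 2246, 2297, 1968, 2127 and 1903 in old control mice and 1972, 1977, 1903.5, 1932 and 2064 in young control mice. Old control and young control mice overlapped, at a log2 difference of 0.09 with an interval of -0.14 to 0.33 (limma adjusted p = 0.597). All mixture mice and all α-tocopherol mice lay above all young control mice, a separation upward that 5.72% of tested probe sets showed for mixture and 6.74% for α-tocopherol mice.

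Mixture against young control was 0.43 ± 0.11 for Abca1 (SE, limma adjusted p = 0.0133), and this call held in all 23 other settings, where the difference ran from 0.33 to 0.51. α-Tocopherol against young control was 0.32 (adjusted p = 0.053, and 0.0163 to 0.164 over other settings). Both differences hold age as well as diet, and the comparisons that hold diet alone did not pass. Mixture against old control was 0.34 ± 0.11 (SE, adjusted p = 0.0953), α-tocopherol against old control 0.23 ± 0.11 (adjusted p = 0.883) and mixture against α-tocopherol 0.11 with an interval of -0.13 to 0.35 (adjusted p = 0.845). Mixture mouse 5 and α-tocopherol mice 4 and 5 lay among the old control mice. The other tested Abca1 probe set, 1421839_at, had 342 to 509 in mixture mice, 196 to 444 in α-tocopherol mice, 163 to 453 in old control mice and 193 to 310 in young control mice. Mixture mice lay above all young control mice on it as well, at 0.60 ± 0.23 (SE, adjusted p = 0.0807), where 5.72% of tested probe sets did so. The untested probe set 1450392_at had 134 to 222 in mixture mice, 95.7 to 195 in α-tocopherol mice, 83.5 to 137 in old control mice and 15.7 to 135 in young control mice, and so overlapped slightly between mixture and young control mice.

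Abcg1, which passes cholesterol on to particles that already carry lipid, lies on chromosome 17 at 31057694 to 31117984. Probe set 1423570_at gave 2571, 2268, 2645, 2366 and 2202 in mixture mice and 2425.5, 2474, 2594, 2701.5 and 2302 in α-tocopherol mice. It gave 2756, 2784, 2715, 2849 and 2745 in old control mice and 2394, 2393, 2585, 2766 and 2299 in young control mice. The old control mice were tightly grouped, and every mouse of both supplemented groups lay below them, while young control mice overlapped them. Mixture against old control was -0.20 ± 0.07 (SE, limma adjusted p = 0.0945), where the share of probe sets lower without overlap is the 3.03% given for Clu. α-Tocopherol against old control was -0.15 ± 0.07 (SE, adjusted p = 0.883), where 0.27% of tested probe sets were lower without overlap. Both comparisons use the same 5 old control mice, whose SD of 50.8 was the smallest of the groups on this probe set. Old control against young control was 0.16 ± 0.07 (SE, adjusted p = 0.11). The second probe set, 1455221_at, did not show the pattern, with 529 to 798 in mixture mice, 619 to 794 in α-tocopherol mice, 585 to 673 in old control mice and 605 to 787 in young control mice. Its difference was 0.14 for mixture against old control and 0.11 for α-tocopherol against old control (adjusted p = 0.525 and 0.92).

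Lcat, the enzyme that esterifies cholesterol on the particles, lies on chromosome 8 at 105939551 to 105943402 on the minus strand. Its probe set 1417043_at gave 690.5, 1093, 1216, 1061 and 946 in mixture mice and 934, 973, 848, 764 and 869 in α-tocopherol mice. It gave 940.5, 967, 784, 764 and 751 in old control mice and 679.8, 773, 872, 698 and 594 in young control mice. In the mixture group 4 mice had more than every young control mouse, and mixture mouse 1 lay among them. Mixture against young control was 0.45 ± 0.13 (SE, limma adjusted p = 0.0228), and the call was lost without young control mouse 5 or mixture mouse 2 or 3 and when these 2 groups were fitted alone (adjusted p = 0.0533). Old control against young control was 0.22 with an interval of -0.06 to 0.49 (adjusted p = 0.256), and mixture against old control was 0.23 with an interval of -0.04 to 0.50 (adjusted p = 0.342).

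Over the 12 tested probe sets of the 6 genes, 7 were called higher and 0 lower in old control against young control mice, where 9.33% of all probe sets were called higher and 9.54% lower. Their median log2 difference was 0.31, against -0.05 for all probe sets, and 5 of the 12 were higher without overlap, where 7.09% of all probe sets were. The 7 called were all of Apod, Apoe and Clu, and probe sets of 1 gene are not independent. In mixture against old control mice, 3 of the 12 were called lower and 0 higher, where 2.29% of all probe sets were called lower and 1.3% higher. All 3 were _x_at probe sets of 1 gene, Clu, among the brightest 2% of the probe sets tested. The median of that brightness class in this comparison was -0.29. The median of the 12 was -0.03 against 0.03 for all probe sets. In α-tocopherol against old control mice limma called none of the 12 and 0% of all probe sets, with 1473 of the 27022 at an unadjusted p under 0.05, among them 1423570_at of Abcg1. In mixture against α-tocopherol mice limma again called none of the 12 and 0% of all, with 2266 probe sets at an unadjusted p under 0.05, among them that of Apoe and the 3 _x_at probe sets of Clu. Against young control, 6 of the 12 were called higher in α-tocopherol mice, where 9.31% of all were, and 4 in mixture mice, where 9.07% of all were. The probe sets called in mixture mice against young control were both of Apod and 1 each of Abca1 and Lcat, with none of Apoe or Clu. After quantile normalization 10 were called higher in mixture mice, with Apoe (0.19, adjusted p = 0.0318) and all 4 Clu probe sets (0.18 to 0.27, adjusted p = 0.00694 to 0.049) among them. Cyclic loess normalization called 7, with Clu 1437458_x_at and 1437689_x_at among them and Apoe not (adjusted p = 0.143). Of all 27022 probe sets, quantile normalization called 5031 in this comparison, 52.9% of them higher. Cyclic loess normalization called 4752, 54.7% of them higher. That, as reported, Apoe and Clu passed in one of these comparisons and not in the other is not a test of their difference, which is the direct comparison given above for each gene.

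**Figure D4:**
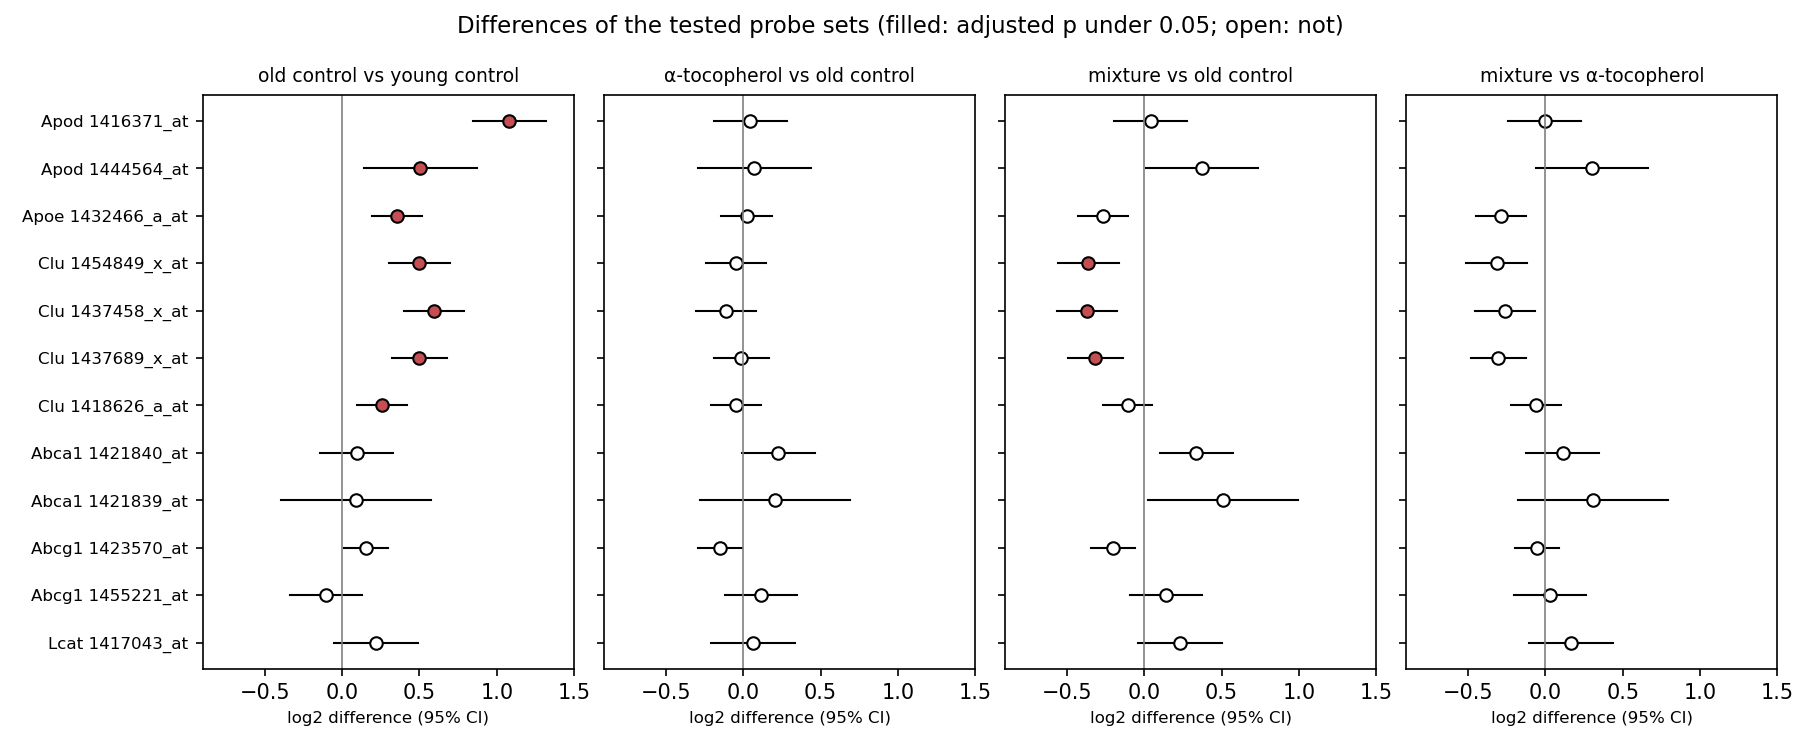
Log2 differences of the 12 tested probe sets with 95% confidence intervals in 4 comparisons; filled points passed an adjusted p of 0.05. In old control vs young control 7 points were filled, all above 0, and in mixture vs old control 3 Clu points, all below 0.

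Markers of the cells that make these genes differed between old control and young control mice. Of all genes, each by its brightest probe set, 11.7% were called higher in this comparison and 9.3% lower. All 10 astrocyte markers were called higher, and the summed signal of the list was 124880 to 143230 in old control mice and 89437 to 95547 in young control mice. Microglial markers were higher for 8 of 9 and lower for 1, P2ry12, with sums of 34559 to 38434 in old control mice and 21482 to 22874 in young control mice. Oligodendrocyte markers were higher for 6 of 9, with sums of 85934 to 103366 in old control mice and 66202 to 79294 in young control mice. Of 10 neuronal markers 5 were higher, with sums of 165669 to 193859 in old control mice and 156204 to 163356 in young control mice. Quantile normalization left 2 neuronal markers higher, Slc17a7 and Tubb3, and 2 lower, Eno2 and Gad1, cyclic loess left the same 2 higher and Gad1 lower, and the β-actin ratio as a covariate left Slc17a7 alone. Over these 3 settings 6 to 8 astrocyte, 6 to 8 microglial and 3 to 5 oligodendrocyte markers were called higher. Of all probe sets, 4499, 4470 and 2028 were called in these settings in the same order, 53.9%, 55% and 54.2% of them higher. In whole tissue, more cells of a type and more RNA per cell cannot be told apart, and the part of these cell types in the differences of Apod, Apoe and Clu was not tested.

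In mixture against old control mice, 0 of 10 astrocyte markers were called by limma, where 1.03% of all genes were called higher and 2.67% lower. Their sums were 97331 to 137070 in mixture mice and 124880 to 143230 in old control mice. The astrocyte list had a median log2 difference of -0.186, close to that of the neuronal list below. Quantile normalization brought the astrocyte median to 0.031, and cyclic loess brought it to -0.036. Setting array medians equal gave 2 astrocyte markers called lower, where 964 of all probe sets were called and 10.1% of these were higher. Neuronal markers were lower for 4 of 10, with sums of 145315 to 162350 in mixture mice and 165669 to 193859 in old control mice. Their median log2 difference was -0.18, against 0.021 after quantile and -0.012 after cyclic loess normalization, where limma called 0 of them. Markers of choroid plexus, which also makes clusterin, varied between mice. The summed signal of the 9 measured was 32548 to 39611 in mixture mice, 18921 to 48796 in α-tocopherol mice, 10866 to 52746 in old control mice and 29023 to 43005 in young control mice. As reported, Kl was the one marker of the list called, lower in old control against young control mice and higher in mixture against old control mice, both lost under quantile and cyclic loess normalization. Its signal in old control mice was 65.1 to 547, with a median of 103, below the filter limit of 184. The medians of the other groups were 341 to 481, above that limit, so these calls are a description. The highest old control mouse lay above every mouse of the other groups. Quantile normalization called Ttr lower in old control against young control mice. The signal of Ttr, the main secreted product of choroid plexus, was 28306 to 35745 in mixture mice, 16214 to 44416 in α-tocopherol mice, 8129 to 50082 in old control mice and 26339 to 39668 in young control mice. With Ttr as a covariate, mixture against old control was -0.36 on Clu 1454849_x_at and -0.33 on 1437689_x_at, both no longer called (adjusted p = 0.0716 and 0.0701), and -0.40 on 1437458_x_at (adjusted p = 0.0486). The same covariate gave 0.50 on 1454849_x_at in old control against young control mice, which was called. With the β-actin ratio as the only covariate, mixture against old control was -0.13 on 1454849_x_at and limma called no probe set of the array. The ratio did not overlap between mixture and old control mice, so this fit cannot tell the ratio and the diet apart. The part of astrocytes, of neurons and of choroid plexus in the Clu differences was not tested.

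Other genes of lipid handling were read from 4 lists, each gene by its brightest probe set. In old control against young control mice, 11.7% of all genes so represented were called higher and 9.3% lower. Of 13 lipid transfer proteins, lipases and lysosomal cholesterol proteins, 7 were called higher and 0 lower, at a median log2 difference of 0.35 against -0.02 for all genes. The 7 include Osbpl5, which passed the brightness filter only through the old groups. Npc2, which hands cholesterol out of the lysosome, was 1.80-fold higher (log2 0.85, adjusted p = 1.42e-05). Lipa, the lysosomal acid lipase, and Gltp, a glycolipid transfer protein, were higher by 0.43 and 0.44 (adjusted p = 0.00363 and 0.00478). Osbpl5, an oxysterol-binding protein relative, had a mean signal of 293 in old control mice and 62.2 in young control mice. The young control level lies below the limit of 184 that the mean over all arrays had to reach, so Osbpl5 was tested only because the old groups were above it, and its values are a description. Leaving Osbpl5 aside, Gltp, Lipa, Lpl, Npc1, Npc2 and Pltp were called higher with array medians set equal and under quantile and cyclic loess normalization. Of these, Npc1, Npc2 and Pltp were also called with the β-actin ratio in the model.

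Of 14 lipoprotein receptors and their partners, 2 were called higher in old control against young control mice. As reported, this count and those of the lists that follow here lay near or under the shares of all genes. These were 11.7% called higher and 9.3% lower. Lrp1, a large receptor that takes up apolipoprotein E particles, was higher by 0.38 (adjusted p = 0.00574) and Lrpap1, its chaperone, by 0.26 (adjusted p = 0.00811). Lrpap1 lost its call under quantile and cyclic loess normalization and with the β-actin ratio in the model, and 6 of the list were called higher with array medians set equal. Of 15 other transporters and carriers, 1 was higher and 1 lower. Abca3, a phospholipid transporter best known from the lung, was 1.63-fold higher (log2 0.71, adjusted p = 7.37e-05), and Apoo, a mitochondrial protein named as an apolipoprotein, fell by 0.28 on the log2 scale (adjusted p = 0.00492), a call lost with array medians set equal and with the β-actin ratio in the model. Of 15 genes around the liver X receptors, 2 were higher, Rxrb by 0.33 and Ppargc1a by 0.41 (adjusted p = 0.0124 and 0.025). These are a partner receptor and a coactivator rather than target genes. Neither was called with the β-actin ratio in the model, Ppargc1a was not with Ttr as a covariate, and with array medians set equal 4 were called higher, Ncoa1 and Srebf1 besides these.

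Few of these genes differed between supplemented and old control mice. In mixture against old control mice, 1.03% of all genes were called higher and 2.67% lower. The transporter list held 2 calls, Abca8a and Abca9, both of the ABCA subfamily of lipid transporters. Abca8a averaged 1477 in mixture mice and 1115 in old control mice (log2 0.40 ± 0.11 SE, adjusted p = 0.0412), and Abca9 averaged 657 in mixture mice and 479 in old control mice (log2 0.44 ± 0.12 SE, adjusted p = 0.045). With array medians set equal, 0 of the list were called higher and 1, Abcg4, lower, and quantile and cyclic loess normalization, the β-actin ratio and Ttr as covariates each left no call. The other 3 lists held no call in mixture against old control mice, and none of the 4 held one in α-tocopherol against old control mice or in mixture against α-tocopherol mice by limma. Against young control, Srebf1, a liver X receptor target that drives fatty acid synthesis, was higher by 0.46 in mixture mice (adjusted p = 0.0144) and by 0.47 in α-tocopherol mice (adjusted p = 0.0116), and by 0.31 in old control mice, where it was not called (adjusted p = 0.0856). Mylip, a target that degrades the low-density lipoprotein receptor, fell by 0.36 in α-tocopherol mice (adjusted p = 0.00556) and had -0.14 in old control mice (adjusted p = 0.238). It was not called lower in mixture mice. Of the 15 genes of this list, 3 were called higher and 1 lower in α-tocopherol mice, where 11.1% and 9.6% of all genes were. In mixture mice 3 were called higher and 0 lower, where 9.2% and 8.74% of all genes were.

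**Figure D5:**
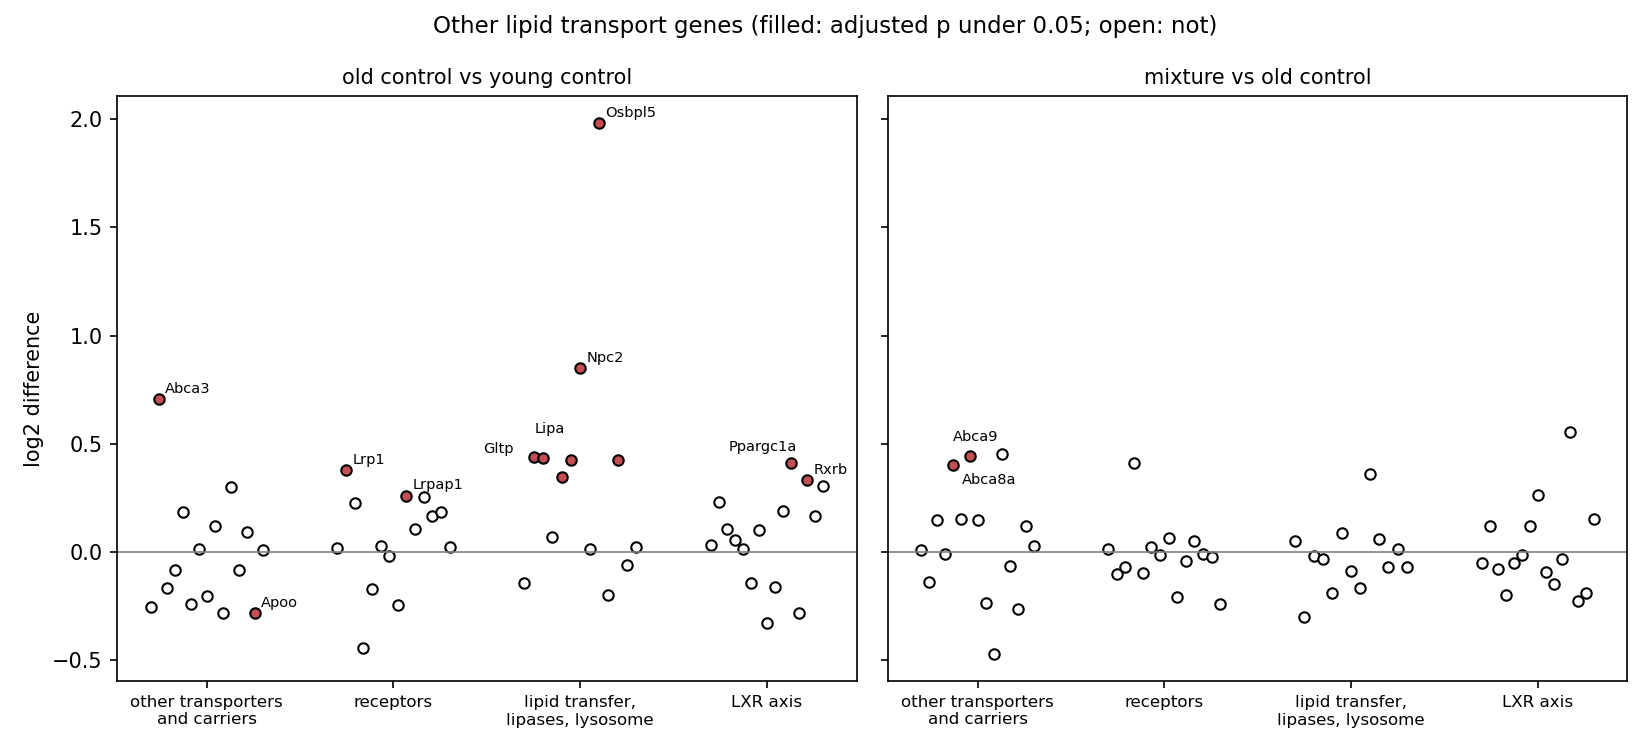
Log2 differences of the genes of the 4 lists (other transporters and carriers, receptors, lipid transfer proteins with lipases and lysosomal proteins, and the liver X receptor, LXR, axis) in old control vs young control and in mixture vs old control. Filled points passed an adjusted p of 0.05. The lipid transfer list held 7 of the filled points in the first comparison, among them Osbpl5, which passed the brightness filter only through the old groups. Abca8a and Abca9 were the filled points in the second comparison.

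Promoter sequences were held for 4 of the 6 genes in the RefSeq table (GRCm38.p6), from 250 bases before to 50 bases after the start. They are shown for Apod, the gene with the largest difference with age, for Apoe at the upstream of its 3 starts in the table, and for Abca1, the liver X receptor target that differed between mixture and young control mice. Each is written 5′ to 3′ along the gene, on the minus strand, and capitals mark motif matches.
Apod, chr16:31314759-31315058: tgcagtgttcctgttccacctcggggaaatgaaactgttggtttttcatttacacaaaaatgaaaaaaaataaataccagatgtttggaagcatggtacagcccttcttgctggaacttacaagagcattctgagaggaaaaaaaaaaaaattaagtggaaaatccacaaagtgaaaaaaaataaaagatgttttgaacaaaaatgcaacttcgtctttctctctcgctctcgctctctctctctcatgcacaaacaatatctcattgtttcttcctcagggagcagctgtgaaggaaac
Apoe, chr7:19699139-19699438: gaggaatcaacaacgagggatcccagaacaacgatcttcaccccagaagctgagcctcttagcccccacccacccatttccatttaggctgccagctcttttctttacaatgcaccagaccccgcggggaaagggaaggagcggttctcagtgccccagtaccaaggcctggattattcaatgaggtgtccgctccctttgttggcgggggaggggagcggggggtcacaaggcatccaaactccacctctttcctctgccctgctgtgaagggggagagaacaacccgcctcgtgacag
Abca1, chr4:53159846-53160145: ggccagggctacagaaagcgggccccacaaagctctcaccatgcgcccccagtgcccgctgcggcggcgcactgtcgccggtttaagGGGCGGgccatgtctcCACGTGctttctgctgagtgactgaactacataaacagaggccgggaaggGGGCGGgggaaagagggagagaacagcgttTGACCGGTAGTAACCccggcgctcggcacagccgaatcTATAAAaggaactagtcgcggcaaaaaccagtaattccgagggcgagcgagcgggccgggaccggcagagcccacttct
Both strands were searched for the core motif AGGTCA, for the liver X receptor type pair of 2 such motifs with 4 free bases between them, the E-box CACGTG, the GC box GGGCGG and the TATA box TATAAA. A relaxed pair, GGTNA and GGTCA with 5 free bases between them, was added after the promoters had been read. The Apod and Apoe windows shown and that of Lcat held none of them. The Abca1 window held the relaxed pair on the opposite strand at base -67 from the start, printed as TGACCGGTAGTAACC, which 0.207% of the 32851 promoters of the table share. It also held an E-box at -147 (7.15% of promoters), GC boxes at -163 and -97 (35.7%) and a TATA box at -29 (13.6%). A match describes the letters of the window and not binding, and Apod, with the largest difference, and Lcat had no match.

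The genes whose signals over the 20 arrays were most like each of the 6 were taken from 13351 genes by Pearson correlation of log2 signals. The arrays share the 4 groups and the scaling, and the values are descriptions. Apod was most like Plekhb1 (r = 0.953), C1qa (0.946), a complement gene of microglia, and Gfap (0.943), the intermediate filament of reactive astrocytes. Apoe was most like Cst3 (0.939), which encodes the protease inhibitor cystatin C, then Dynll2 (0.917) and Nsmf (0.9). The brightest Clu probe set was most like Rpsa (0.961), Rnf187 (0.96) and Rpl13a (0.958), and Rpsa and Rpl13a encode ribosomal proteins. Abca1 was most like Ado (0.901), Kcnj10 (0.895), the potassium channel of astrocytes, and Rdx (0.894). The nearest genes of Abcg1 were Syne1 (0.815), Prkaca (0.802) and 4933434E20Rik (0.801), and those of Lcat were Rhoj (0.804), Lcmt2 (0.799) and Rab33b (0.797). After the group means were removed, r was 0.619 to 0.68 for the 3 genes nearest Apod, against 0.874 to 0.923 for those nearest Clu.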

How the data were processed

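The samples were neocortex of 20 mice, 5 in each of 4 groups, with 1 Affymetrix array per mouse. Per the labels' protocols, poly(A) RNA was purified, reverse-transcribed from an oligo-dT primer and labelled as cRNA. The authors deposited linear signal intensities made with GCOS (Affymetrix software), per the submitters' processing notes, which give no version. Each deposited column of intensities had a 2% trimmed mean of 1000, so a shift of all mRNA in 1 direction cannot be seen. The sources used here do not give the background correction, probe set summary, detection calls or build of the array annotation.

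The 6 genes, the other gene lists and the tests were chosen with earlier results of these data known. Intensities were analysed as log2(signal + 16), which understates changes of dim probe sets. Of 45037 non-control probe sets, the 27022 in the top 60% by mean log2 signal (184 or more) entered limma 3.58.1 under R 4.3.3 (lmFit, contrasts, eBayes with an intensity trend, all 20 arrays in 1 fit). P-values were two-sided and adjusted by Benjamini-Hochberg over all tested probe sets, the threshold was 0.05, and limma was also tested on simulated data. Mean signals of listed genes are back-transformed means of log2 values. Array measures were compared by exact permutation tests over mice.

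Named genes were all probe sets of the 6 genes, up to 4 called genes of each list per comparison by smallest p, and the 3 genes most correlated with each member; Kl, P2ry12, Slc17a7, Ttr, Srebf1, Mylip, Lpl, Npc1, Pltp, Abcg4, Tubb3, Eno2, Gad1 and Ncoa1 were added or singled out after their values had been seen. Of probe sets with 1 symbol, 34741 were matched to RefSeq (GRCm38.p6) and 204 kept the annotation's symbol. Coordinates and promoters are RefSeq's. Other pseudocounts, filters, normalizations, fits, covariates, a replicate block and leaving out each mouse were tried as alternatives; leaving out old control mouse 3 with mixture mouse 5, and the alternatives for the comparisons of the supplements with young control, were added after the data had been seen. For animals with the same number in different groups, the correlation of deviations from group means was -0.11 to 0.203, over 0.1 in 7 of 30 pairs. Its mean was 0.041, against -0.01 for animals with different numbers. The number of arrays limits the precision.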

Additional observations from a re-analysis of the deposited data

Results flagged for a closer look

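The values of each of the 13 probe sets in each of the 4 groups, 52 sets of 5 mice in all, were examined for a mouse far from the other 4. By chance about 1 in 20 such sets would stand out, and 2 did. Abca1 probe set 1450392_at, which was too dim to be tested, had a signal of 15.7 in young control mouse 4, against 106 to 135 in the other young control mice. Abcg1 probe set 1455221_at had 528.7 in mixture mouse 4, against 712 to 798 in the other mixture mice. Neither value enters a difference that passed the threshold.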

How the results depend on the processing

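Over 1662 comparisons of a result with an alternative, 1491 kept the direction and the side of the threshold, 72 lost a call or a count, 35 gained one and 64 changed sign; no value that changed sign was called in either setting. The calls of Apod 1416371_at and of Clu 1437458_x_at and 1437689_x_at in old control against young control mice held in every alternative run.

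The number of probe sets of the 6 genes called in mixture against old control mice, 3 as reported, was 0 without the brightness filter, under quantile and cyclic loess normalization, without the intensity trend, in a fit of the 2 groups alone, with the β-actin ratio in the model and without old control mouse 3 and mixture mouse 5 together; it ran from 0 to 4 when each mouse was left out in turn. The count over all probe sets, 970 as reported, was 492 without the filter, 133 with quantile and 177 with cyclic loess normalization, 603 for 1 probe set per gene, 358 without the trend, 476 in the 2-group fit, 0 with the β-actin ratio (limma), 529 with Ttr as a covariate and 0 without both mice, where limma gave no call on 18 arrays. It ran from 280 (without mixture mouse 5) to 971 when each mouse was left out, and was 284 without old control mouse 3. In old control against young control mice, 7 probe sets of the 6 genes and 5097 in all were called; 1 probe set per gene gave 3 and 3039, and adding the β-actin ratio gave 4 and 2028. In mixture against young control mice, 4 of the 6 genes' probe sets were called, 10 with quantile and 7 with cyclic loess normalization. The count over all probe sets there was 4611, against 5031 with quantile and 4752 with cyclic loess normalization. It fell to 2580 with 1 probe set per gene. In α-tocopherol against young control mice 5017 fell to 2970 with 1 probe set per gene, and in mixture against α-tocopherol mice 0 calls became 64 without α-tocopherol mouse 5 (0 to 64 over all mice left out). Fewer probe sets were tested with 1 per gene; the cause of the other changes was not tested.

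Setting array medians equal moved the median log2 difference of all probe sets in old control against young control mice to 0.084, against -0.048 as reported, and the share of calls that were higher to 83.8%, against 49.4%. In mixture against old control mice that share was 10.1%, against 36.1%.

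The values that changed sign were small or uncalled. In mixture against old control mice these were Apoe, 0.132 after quantile normalization; Clu 1418626_a_at, 0.0535 after quantile and 0.0408 after cyclic loess normalization; and Apod 1416371_at, -0.0311 with array medians equal and -0.0484 to 0.13 with 1 mouse left out. In mixture against α-tocopherol mice, Apoe was 0.0639 after quantile normalization, and Clu 1418626_a_at was 0.069 and 0.055 after the 2 normalizations. Apod 1416371_at was 0.112 and 0.0963 after these, 0.0672 with the β-actin ratio and 0.0849 without both mice, and -0.0934 to 0.0849 with 1 mouse left out. Abcg1 1455221_at was -0.0239 with array medians equal, -0.0221 and -0.0142 after the 2 normalizations, -0.0191 with the β-actin ratio, -0.0059 without both mice and -0.0213 to 0.124 with 1 mouse left out. In α-tocopherol against old control mice, Clu 1437689_x_at was 0.0307 and 0.0268 after the 2 normalizations, 0.0974 with the β-actin ratio, 0.0245 without both mice and -0.0752 to 0.035 with 1 mouse left out. Clu 1454849_x_at was 0.0104 after quantile normalization, 0.0923 with the β-actin ratio, 0.0146 without both mice and -0.121 to 0.0146 with 1 mouse left out. Apoe was -0.0672 with Ttr as a covariate and -0.0354 to 0.0835 with 1 mouse left out, Abca1 1421839_at -0.0369 with the β-actin ratio, and Apod 1444564_at -0.0435 to 0.169 with 1 mouse left out. In old control against young control mice, Abcg1 1455221_at was 0.029 with array medians equal, and Abca1 1421839_at was -0.0807 without both mice and -0.0807 to 0.267 with 1 mouse left out. In mixture against young control mice, Abcg1 1423570_at was 0.0134 with array medians equal and 1455221_at -0.0104 to 0.135 with 1 mouse left out. In α-tocopherol against young control mice, the same 2 probe sets were -0.0205 to 0.0468 and -0.0421 to 0.0637 with 1 mouse left out.

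The numbers shared by mice of different groups were not treated as pairs in the reported fit. With the number as a replicate block, calls in mixture against old control mice were 1338, against 970 without it, and in old control against young control mice 5409, against 5097; the block lost no call of the 6 genes. The limit common to these results is 5 mice a group, 1 array each, and signals near the filter that lie close to background.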

Other observations

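The 6 genes were also compared with each other among mice of the same group, by correlating the deviations of their brightest probe sets from the group means over 20 mice. In 15 pairs, with 100000 permutations within groups, none passed adjustment. The pair with the highest correlation was Apod and Clu (Pearson r = 0.647, permutation p = 0.0086, adjusted p = 0.129; Spearman rho = 0.525, permutation p = 0.0327, adjusted p = 0.284). Without the 2 mice farthest from the median, r was 0.458. For Apoe and Clu, r was 0.449 (permutation p = 0.0829, adjusted p = 0.247; rho = 0.529, permutation p = 0.0379, adjusted p = 0.284) and 0.409 without the 2 farthest mice. Apoe and Lcat had the lowest value, -0.419 (permutation p = 0.0606, adjusted p = 0.247; rho = -0.426, permutation p = 0.0778, adjusted p = 0.354), and -0.339 without the 2 farthest mice.

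The 3′ control probe set of 18S ribosomal RNA, which poly(A) selection should leave at a low level, gave 910 ± 162 in mixture mice and 1648 ± 365 in old control mice (SD over 5 mice). In young control mice it gave 620 ± 171. Both differences from old control had an exact two-sided permutation p of 0.00794, the smallest the design allows, and 0.0238 after adjustment. The median signal of the arrays was 308 ± 17.0 in mixture mice, 292 ± 12.4 in old control mice and 321 ± 6.24 in young control mice. Old control and young control arrays did not overlap in it (exact permutation p = 0.00794, adjusted 0.0238).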
